A study of Mus musculus with 3 samples.

Results

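The transcription factor NF-kB was followed in c2c12 cells, a mouse myoblast line that grows without limit and fuses into myotubes in low serum, through 10 genes taken by symbol from the 23238 symbols in the count files. They are the genes of 4 subunits (Nfkb1, Nfkb2, Rela and Relb), of 3 inhibitors (Nfkbia, Nfkbie and Tnfaip3) and of 3 targets (Birc3, Icam1 and Il6). All cells were unmodified and were switched from growth medium to low-serum myogenic induction medium. They were cultured for 2 days on a tissue culture plate (TCP), on a hydrogel of methacrylated gelatin (GelMA), or on GelMA-PSS, a hydrogel of 15% methacrylated gelatin with 1% PSS (poly sodium 4-styrenesulfonate), a sulfonated polymer used to mimic heparin. The study asked which transcripts set cells on the heparin-mimicking matrix apart from cells on TCP and GelMA. It provided 1 RNA-seq library for each of the 3 substrates, so no difference below has a replicate check. No p-value was computed. The intervals given are 95% intervals of counting error only, and GelMA against TCP serves as the measure of how far libraries without PSS differ.

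NF-kB dimers of the Rel family are held in the cytoplasm by inhibitors of the IkB family. Signals from the TNF receptor, the interleukin 1 receptor and Toll-like receptors activate a kinase complex that marks IkB for degradation, after which the dimers enter the nucleus and bind DNA. Among their targets are the genes of their own inhibitors, which ends the response, and genes of cytokines, chemokines and adhesion molecules. In myoblasts, active NF-kB is known to hold back differentiation, and interleukin 6 is a cytokine that muscle cells secrete.

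Upstream sequences are shown for the inhibitors and Il6, which had a higher CPM on both gels than on TCP. That of Nfkb2 is shown as a subunit gene that differed little. RefSeq windows on GRCm38.p6 from 250 bases before to 50 bases after a start site were at hand for 8 of the 10 genes, in 11 windows, with none for Nfkb1 and Relb. The 10-base NF-kB consensus, searched on both strands, was found in windows of 5 genes: Nfkbia, Tnfaip3, Nfkbie, Il6 and Nfkb2. The first Nfkb2 window held 3 matches, the most of any member window. Birc3, whose CPM was also higher on both gels than on TCP, had no match in its window, and neither had Icam1 or Rela. It was found in 8.46% of the 32851 windows of the same length. The looser pattern GGGNNNNNCC was found in all 8 genes and in 50.8% of all windows, so its presence sets none of them apart. A match describes the letters and does not show binding. In the stretches below, written 5′ to 3′ on the strand of the gene, capitals mark the bases of the consensus matches read on either strand.
Nfkbia, chr12:55492648-55492707, minus strand: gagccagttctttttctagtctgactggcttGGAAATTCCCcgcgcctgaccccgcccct
Tnfaip3, chr10:19015501-19015547, minus strand: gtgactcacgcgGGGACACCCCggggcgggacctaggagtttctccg
Tnfaip3, chr10:19015411-19015450, minus strand: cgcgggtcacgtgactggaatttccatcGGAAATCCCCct
Nfkbie, chr17:45555570-45555629, plus strand: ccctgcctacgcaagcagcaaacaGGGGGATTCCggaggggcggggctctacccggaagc
Il6, chr5:30013039-30013098, plus strand: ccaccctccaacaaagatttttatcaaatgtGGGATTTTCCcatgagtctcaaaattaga
Nfkb2, chr19:46304689-46304718, plus strand: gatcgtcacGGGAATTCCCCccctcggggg
The matches began 29 bases before the start site in Nfkbia, 125 and 12 bases before it in Tnfaip3, 106 bases before it in Nfkbie and 44 bases before it in Il6. In Nfkb2 the run in capitals held overlapping matches that began 39 and 38 bases before the first start site, and the printed stretch lies in an annotated exon.

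Counts were scaled to library size as CPM, with TMM factors that correct for differences in composition, and ratios were taken on log2(CPM + 1). The libraries held 119799095 (TCP), 87071144 (GelMA) and 192171443 (GelMA-PSS) counts, and 3 counts corresponded to a CPM of 0.0246, 0.0330 and 0.0166. A gene was tested when its CPM reached 1 on any substrate, which left 13169 genes and 8 of the 10 members. Birc3 and Icam1 stayed below this limit in every library. The GelMA-PSS ratios of all genes depended on transcript length, with a Spearman correlation across 13053 genes of -0.66 against GelMA and -0.50 against TCP, beside 0.21 between GelMA and TCP. Genes share libraries and are not independent replicates. For the ratios the results turn on, values after a correction that removes the trends with length and GC content are given too. The cells carried muscle transcripts in every library, with a CPM of Myog, the gene of myogenin, between 895 and 1100. Of 8 tested muscle markers 3 were higher (Myod1, Myf5 and Cdh15) and 3 lower (Ckm, Myh3 and Acta1) on GelMA-PSS than on both controls. The shares of all genes were 45.3% and 39.3%. Des and Myog lay between the controls. Myh3, the embryonic myosin heavy chain, was past 2-fold below both, at a CPM of 10180 on TCP, 6355 on GelMA and 3037 on GelMA-PSS, and its log2 ratio against GelMA went from -1.06 to -0.61 with the correction. Myf5, a factor of undifferentiated myoblasts, went the other way, at 13.9, 19.5 and 36.5. Its log2 ratio went from 0.87 to 0.53 against GelMA and from 1.33 to 1.07 against TCP with the correction.

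Against these libraries, the subunits differed little and the inhibitors had a higher CPM on the gels than on TCP. On log2(CPM + 1), Nfkbia was the 1 member past 2-fold, with a ratio of 1.28 for GelMA-PSS over TCP. In this comparison 3.72% of all genes tested were past 2-fold above TCP and 6.85% in either direction. The call depends on the pseudocount, since the scarce Il6 was also past 2-fold above TCP on both gels with 0.1 in place of 1. Birc3 was below the CPM limit and could not be called, though its plain CPM was more than 2-fold above TCP on both gels. No member was past 2-fold between GelMA-PSS and GelMA, where 4.1% of all genes were in either direction, and none between GelMA and TCP, where 1% were. None was past 2-fold in 1 direction against both controls, as 2.53% of all genes were. At 1.5-fold, the lower limit the study also used, Nfkbia was past it above both controls, as 8.08% of all genes were, and above GelMA, as 11% were. Nfkbia and Il6 were past 1.5-fold above TCP on GelMA-PSS, as 13.2% of all genes were, and Il6 alone on GelMA, as 3.5% were. By any amount, 4 of the 8 members were higher on GelMA-PSS than on both controls and 3 were lower, beside 45.3% and 39.3% of all genes, and after the correction 4 and 3, beside 40.9% and 40.7%, with Rela in place of Il6 among the higher ones. In TPM without a scaling factor only 1 of them, Nfkbia, was highest on GelMA-PSS. GelMA was above TCP in 7 of the 8, beside 48.3% of all genes (49.2% after the correction), and the sign of the GelMA against TCP ratio was the same in each of the 8 under every alternative setting tried. Il6 entered the 8 only through its level on the gels. The median log2 ratio of the 8 members was -0.003 for GelMA-PSS over GelMA, 0.19 for GelMA-PSS over TCP and 0.27 for GelMA over TCP, and the medians over all genes were 0.035, 0.036 and -0.01.

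**Figure D1:**
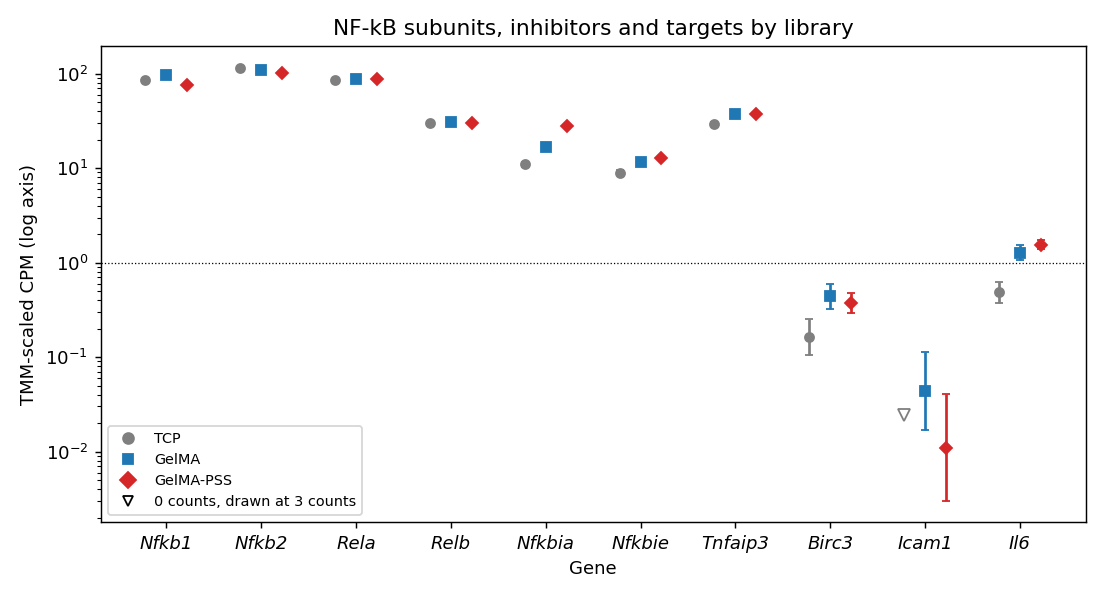
TMM-scaled CPM on a log axis of the 10 NF-kB genes in the TCP, GelMA and GelMA-PSS libraries, with Wilson 95% intervals of counting error and a dotted line at a CPM of 1. The 4 subunit genes lie close together across the libraries, Nfkbia climbs from 10.97 on TCP to 28.1 on GelMA-PSS, and Birc3 and Icam1 lie below the line.

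Nfkb1 encodes p105, the precursor of the p50 subunit, on chromosome 3 (135584655 to 135691547, minus strand, GRCm38). Its CPM was 84.7 on TCP, 97.9 on GelMA and 75.3 on GelMA-PSS. GelMA-PSS was thus the lowest and GelMA the highest, and none of the intervals overlapped. The CPM on GelMA-PSS was 0.769 times that on GelMA (0.749 to 0.790) and 0.889 times that on TCP (0.866 to 0.912), whereas GelMA was 1.16 times TCP (1.12 to 1.19). The log2 ratio against GelMA went from -0.37 to -0.20 with the correction, and the ratio against TCP from -0.17 to -0.03. Its transcript of 4117 bases is the longest of the 4 subunit members.

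Nfkb2 encodes p100, the precursor of p52 and a brake on Relb, on chromosome 19 (46304320 to 46312385, plus strand). Its CPM was 114.1 on TCP, 109.9 on GelMA and 101.6 on GelMA-PSS, again lowest on GelMA-PSS, with intervals that did not overlap. The log2 ratio against GelMA was -0.11, and -0.01 after the correction. That against TCP was -0.17, and -0.08 after it. The gene overlaps Psd on the opposite strand, and reads of the overlap can be told apart only if strand was used in counting, which is not given in the sources used here.

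Rela encodes p65, the subunit with the main transactivation domain, on chromosome 19 (5637483 to 5648130, plus strand). Its CPM was 85.6 on TCP, 88.7 on GelMA and 88.0 on GelMA-PSS, and neighbouring intervals overlapped. The fold was 0.993 (0.967 to 1.02) against GelMA and 1.03 (1.00 to 1.05) against TCP. The sign of these small ratios depended on the scaling and on the correction. Relb, the partner of p52 in the noncanonical pathway, lies on chromosome 7 (19606217 to 19629438, minus strand). Its CPM was 30.1 on TCP, 31.1 on GelMA and 29.9 on GelMA-PSS, with overlapping intervals. The fold was 0.963 (0.920 to 1.01) against GelMA and 0.996 (0.955 to 1.04) against TCP, so at this depth a difference of Relb between GelMA-PSS and either control was not detectable beyond counting error.

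Rel, the remaining gene of the family, encodes c-Rel, which is best known in lymphocytes. It was low in these myoblasts, with a CPM of 2.32 on TCP, 2.42 on GelMA and 1.53 on GelMA-PSS. Its log2 ratio against GelMA was -0.44, and 0.01 after the correction. In TPM, which is scaled for transcript length as well as library size, the 5 genes made up similar parts of the family in each library. Nfkb2 held 35.5% on TCP, 33.1% on GelMA and 33.4% on GelMA-PSS. Rela held 30.8%, 30.9% and 33.5% in the same order, and Nfkb1 held 20.1%, 22.5% and 18.9%. Relb held between 13.3% and 14.0%, and Rel never above 0.307%.

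On log2(CPM + 1) Nfkbia had the widest range of the members. It encodes IkB alpha, the inhibitor that is degraded and remade within each NF-kB response, on chromosome 12 (55489410 to 55492647, minus strand). Its CPM was 10.97 on TCP (10.4 to 11.6), 16.9 on GelMA (16.04 to 17.7) and 28.1 on GelMA-PSS (27.3 to 28.9). The levels were ordered TCP, GelMA, GelMA-PSS with no overlap. GelMA was 1.54 times TCP (1.43 to 1.66), GelMA-PSS was 1.67 times GelMA (1.57 to 1.77) and GelMA-PSS was 2.56 times TCP (2.41 to 2.72). With every count halved, as would hold if both reads of a pair had been counted, the interval of the last value widened to 2.35 to 2.79. Compared with GelMA, the log2 ratio was 0.70 before and 0.40 after the correction. Compared with TCP it was 1.28 and 1.04. It stayed above 0 in all 3 comparisons under every setting tried.

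Nfkbie encodes IkB epsilon, a slower inhibitor of the same kind, on chromosome 17 (45555703 to 45563169, plus strand). Its CPM was 8.92 on TCP, 11.6 on GelMA and 12.9 on GelMA-PSS. The order was that of Nfkbia, with narrower steps and no overlap of the intervals. GelMA was 1.30 times TCP (1.19 to 1.41) and GelMA-PSS 1.11 times GelMA (1.03 to 1.20). The second of these folds, a log2 ratio of 0.14, became 0.07 with the correction and -0.29 in TPM without a scaling factor, a scale on which the median of all genes was -0.37.

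Tnfaip3 encodes A20, a ubiquitin-editing enzyme that shuts off signals upstream of the IkB kinase, on chromosome 10 (19000910 to 19015657, minus strand). Its CPM was 29.6 on TCP, 37.6 on GelMA and 37.7 on GelMA-PSS. The levels on the gels could not be told apart within counting error (fold 1.00, 0.963 to 1.05), and GelMA was 1.27 times TCP (1.21 to 1.33). The correction, for a transcript of 4422 bases, gave a log2 ratio against GelMA of 0.18 in place of 0.004, while TPM without a factor gave -0.44. Against TCP the ratio on GelMA-PSS was 0.34, and 0.48 after the correction, but it turned to -0.065 in TPM without a factor, where the median of all genes was -0.32.

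**Figure D2:**
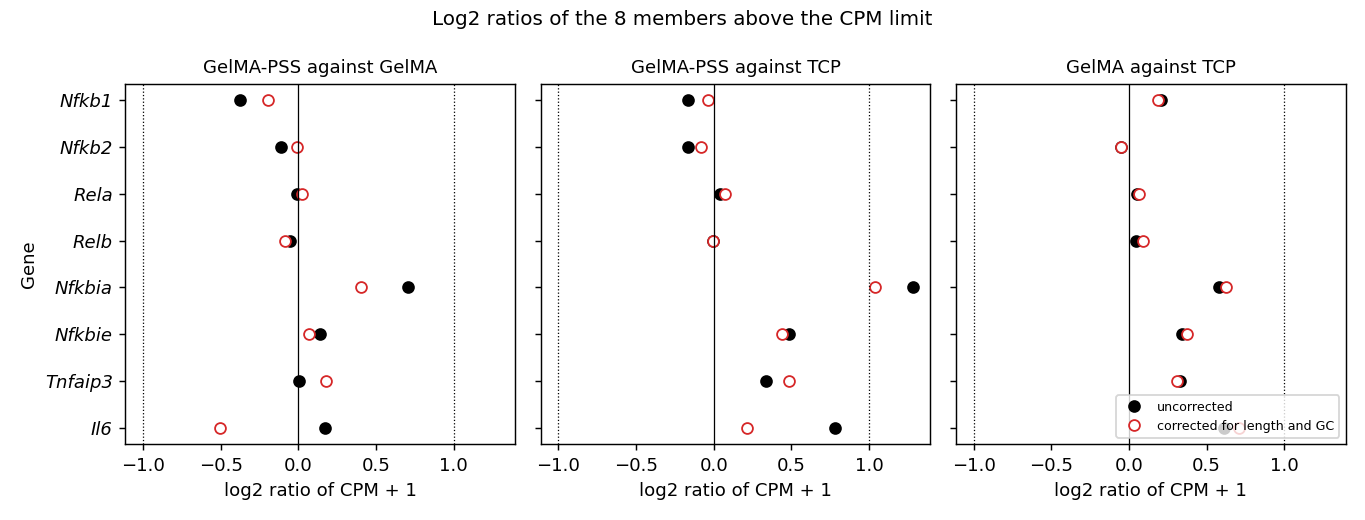
Log2 ratios of CPM + 1 for the 8 members above the CPM limit in the 3 comparisons, before (filled) and after (open) the correction for length and GC, with dotted lines at 2-fold. Nfkbia alone is past the line, on GelMA-PSS against TCP with both values, and Il6 changes side against GelMA, from 0.17 to -0.50.

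The relatives of these inhibitors did not follow 1 order. Nfkbib, which encodes IkB beta, was at a CPM of 22.1 on TCP, 17.5 on GelMA and 19.6 on GelMA-PSS, highest on TCP. Nfkbiz, an atypical nuclear IkB, was highest on GelMA (27.9, 40.1 and 28.1 in the order TCP, GelMA, GelMA-PSS). Bcl3, a nuclear IkB that works with p50 and p52, was higher on both gels (2.78, 5.26 and 4.91). Nfkbid was below the limit, with 44 counts on TCP, 4 on GelMA and 54 on GelMA-PSS. Of the 6 genes of this group that were tested, 3 were higher on GelMA-PSS than on both controls, beside 45.3% of all genes. None was lower, beside 39.3% of all genes. All 3 were members, and Tnfaip3 was higher by less than counting error.

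Ratios between genes of the same library do not depend on how libraries are scaled. Per 100 counts of Rela there were 12.8 of Nfkbia on TCP, 19.01 on GelMA and 31.9 on GelMA-PSS. The ratio on GelMA-PSS was 2.49 times that on TCP (2.33 to 2.66) and 1.68 times that on GelMA (1.58 to 1.79). The corrected log2 difference between both genes was 0.97 against TCP and 0.38 against GelMA. Per length, the sum of Nfkbia, Nfkbib and Nfkbie was 21.0 TPM for every 100 TPM of the Rel family on TCP, 22.8 on GelMA and 33.9 on GelMA-PSS. Within that sum Nfkbia held 32.4% on TCP, 44.4% on GelMA and 54.4% on GelMA-PSS, and Nfkbib, the largest part on TCP at 49.96%, held 35.2% and 29.0% on the gels. TPM does not remove the dependence of the GelMA-PSS ratios on transcript length, and these sums and shares were not corrected for it. For Nfkbia per Nfkbib, the log2 fold of GelMA-PSS against GelMA went from 0.57 to 0.35 with the correction. Against TCP it went from 1.53 to 1.27. All these values are of transcripts, and the amount of IkB protein was not measured.

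**Figure D3:**
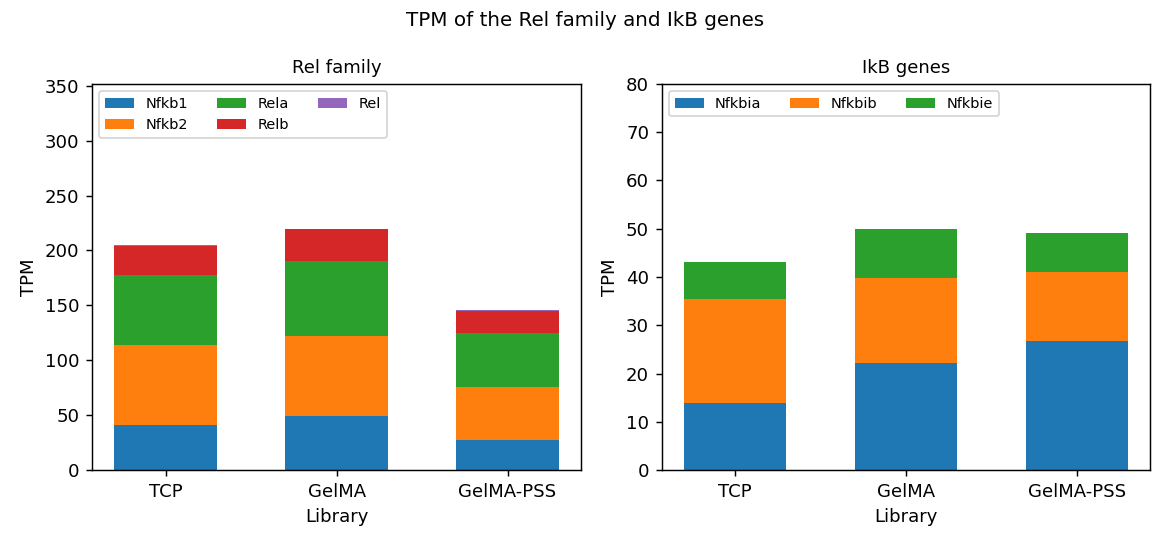
TPM of the 5 Rel family genes (left) and of the 3 IkB genes (right) stacked in each library, on axes that start at 0. The Nfkbia part of the IkB sum widens from 32.4% on TCP to 54.4% on GelMA-PSS, while the shares within the Rel family stay close. The sum of the Rel family is lower on GelMA-PSS (145.4, beside 205.1 on TCP) on a scale where the median gene is also lower.

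Il6 encodes interleukin 6, on chromosome 5 (30013114 to 30019981, plus strand). It had 59 counts on TCP, 115 on GelMA and 281 on GelMA-PSS, which are CPM values of 0.485, 1.27 and 1.55. Both gels were above TCP, and the interval on GelMA (1.05 to 1.52) overlapped that on GelMA-PSS (1.38 to 1.74). GelMA was 2.61 times TCP (1.89 to 3.64), GelMA-PSS 3.20 times TCP (2.41 to 4.31) and GelMA-PSS 1.23 times GelMA (0.983 to 1.54). On log2(CPM + 1), which understates the change of a gene this low, the ratios were 0.61, 0.78 and 0.17. With a pseudocount of 0.1 in place of 1 both ratios against TCP were past 2-fold. The transcript is short, at 1141 bases, and the correction left 0.71 for GelMA against TCP, 0.22 for GelMA-PSS against TCP and -0.50 for GelMA-PSS against GelMA. The GelMA against TCP difference therefore did not depend on the correction, and the direction between the gels did.

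Birc3 encodes cIAP2, a ubiquitin ligase of the TNF receptor complex, on chromosome 9 (7848699 to 7873186, minus strand). It had 20 counts on TCP, 40 on GelMA and 68 on GelMA-PSS, or CPM values of 0.164, 0.440 and 0.375. The gels were above TCP, at 2.68 times (1.53 to 4.84) for GelMA and 2.29 times (1.37 to 3.97) for GelMA-PSS, and the gels could not be told apart (0.853, 0.569 to 1.29). Icam1 encodes an adhesion molecule that leukocytes bind through integrins, on chromosome 9 (21015985 to 21028817, plus strand). It had 0 counts on TCP, 4 on GelMA and 2 on GelMA-PSS. On TCP 3 counts, the limit that a count of 0 allows, are a CPM of 0.0246 and the upper Wilson bound is 0.0316, and no difference of Icam1 was detectable at this depth. Vcam1, which encodes an adhesion molecule of related function, was in contrast at a CPM of 49.5 on TCP, 75.8 on GelMA and 77.6 on GelMA-PSS.

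**Figure D4:**
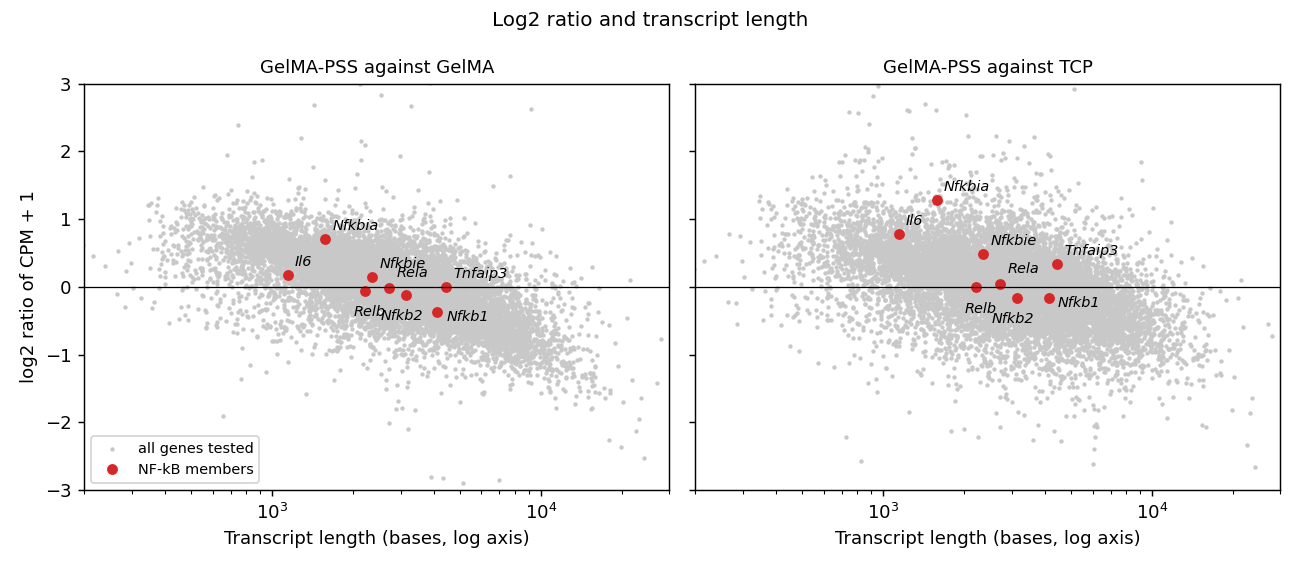
Log2 ratio of CPM + 1 against transcript length in bases (log axis) for GelMA-PSS against GelMA (left) and against TCP (right), with all genes tested in grey and the 8 members in red; some grey points lie beyond the axes. The grey cloud slopes down from short to long transcripts, Nfkbia and Il6 are the shortest members at 1578 and 1141 bases, and Nfkb1 and Tnfaip3 the longest at 4117 and 4422 bases.

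Other genes of the pathway were grouped by role. The 37 kinases, adaptors and ubiquitin enzymes between receptors and IkB were all tested, and none was past 2-fold in any comparison, beside 4.1%, 6.85% and 1% of all genes in the 3 comparisons. On GelMA-PSS 16 were higher and 17 lower than both controls, beside 45.3% and 39.3% of all genes, with median log2 ratios of -0.056 over GelMA and 0.043 over TCP, and of 0.032 between GelMA and TCP. Against the mean of both controls and without the correction, Traf3, which keeps the noncanonical kinase low, had the largest log2 ratio of these, at a CPM of 48.6 on TCP, 52.8 on GelMA and 31.4 on GelMA-PSS. Its log2 ratio of -0.73 against GelMA became -0.17 with the correction. Traf1, an adaptor that is itself an NF-kB target, was larger after the correction, at 0.73 against the mean of both controls, with a CPM of 0.813, 0.957 and 1.98, above the limit on GelMA-PSS only. The core IkB kinase genes Chuk (58.1, 57.6 and 55.0 in the order TCP, GelMA, GelMA-PSS) and Ikbkb (63.7, 61.2 and 56.3) differed little.

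Of 22 receptors and ligands 17 were tested, and Il33 was past 2-fold above both controls, as 1.37% of all genes were. Il33 encodes interleukin 33, an alarmin of the interleukin 1 family. Its CPM was 55.7 on TCP, 87.6 on GelMA and 176.4 on GelMA-PSS, the same order as Nfkbia. Its log2 ratio over GelMA was 1.002, just past 2-fold, and 0.77 after the correction. Over TCP it was 1.645 and 1.46. After the correction Il33 was thus past 2-fold above TCP only. The gene of the interleukin 33 receptor, Il1rl1, was near the limit (0.591, 1.56 and 1.13). Transcripts of the classical ligands were scarce, with 20 counts of Tnf on TCP, 14 on GelMA and 78 on GelMA-PSS, and a CPM of Il1b of 5.37, 3.21 and 4.02. The receptor gene Tnfrsf1a was at 73.8, 76.9 and 88.3. None of the 17 was lower past 2-fold in any comparison. Of all 13169 genes, 307 were for GelMA-PSS against GelMA, 3.13% for GelMA-PSS against TCP and 0.296% for GelMA against TCP.

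Among 35 other textbook targets of NF-kB 24 were tested. GelMA was past 2-fold above TCP in 6 of them, beside 0.706% of all genes, and below in none, beside 0.296%. GelMA-PSS was past 2-fold above TCP in 8, beside 3.72% of all genes, and below in none, beside 3.13%. Both comparisons share the TCP library. The 6 were the chemokine genes Cxcl5, Cxcl1, Ccl2 and Ccl7, the complement gene C3 and the acute phase gene Saa3, and the 8 added Nos2, the inducible nitric oxide synthase, and the chemokine gene Ccl5. Of the 24, 7 were below a CPM of 1 on TCP (C3, Saa3, Nos2, Ccl5, Selp, Tnfrsf9 and Traf1) and were tested only for their level on the gels, so that a difference from TCP was built into their choice. This raises both counts and the medians against TCP. The other 4 of the 8, Cxcl5, Cxcl1, Ccl2 and Ccl7, were above the limit in every library. The median log2 ratio of the 24 was 0.42 for GelMA against TCP, 0.68 for GelMA-PSS against TCP and 0.12 for GelMA-PSS against GelMA.

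Cxcl5, a chemokine that attracts neutrophils, had the largest log2 ratio of GelMA-PSS over TCP among these targets, on log2(CPM + 1). Its CPM was 1.88 on TCP, 24.2 on GelMA and 41.2 on GelMA-PSS. Cxcl1, which acts on the same receptor, was at 1.47, 9.56 and 18.2, and C3 at 0.107, 10.6 and 7.41. Ccl2, which attracts monocytes, was at 2.64, 12.9 and 12.0. With the correction, the log2 ratio of GelMA-PSS against GelMA went from 0.74 to 0.235 for Cxcl5 and from 0.86 to 0.24 for Cxcl1. For C3 it went from -0.46 to -0.13 and for Ccl2 from -0.10 to -0.795. After the correction the count of targets past 2-fold was 6 for GelMA against TCP, beside 0.651% of all genes, and 5 for GelMA-PSS against TCP, beside 2.01%. The 6 again included C3 and Saa3, and the 5 included C3 and Nos2. These genes were tested only for their level on the gels, which raises these counts too. Against GelMA, only Nos2 was past 2-fold above on GelMA-PSS, beside 1.77% of all genes, at 21 counts on TCP, 55 on GelMA and 519 on GelMA-PSS. It reached the limit on GelMA-PSS alone, so that this difference was built into its choice. Ptgs2, the inducible cyclooxygenase, went the other way, at a CPM of 39.3, 43.6 and 20.5. It was the 1 target past 2-fold below GelMA on GelMA-PSS, as 307 of all 13169 genes were. Its log2 ratio against GelMA was -1.05, and -1.001 after the correction.

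**Figure D5:**
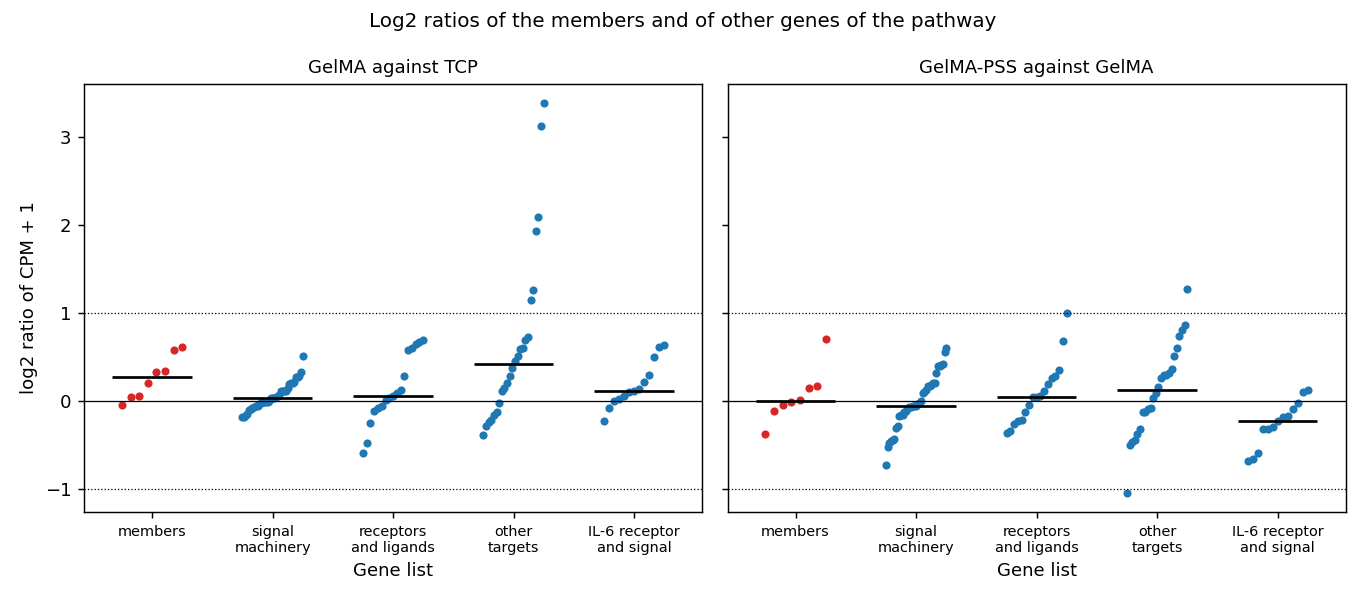
Log2 ratios of CPM + 1 of the tested genes of each list, sorted within the list, for GelMA against TCP (left) and GelMA-PSS against GelMA (right), with black lines at the medians and dotted lines at 2-fold. In the left panel 6 of the 24 other targets lie above 2-fold, and the 37 genes of the signal machinery lie within 2-fold in both panels.

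Of 10 relatives of Birc3 and Icam1 6 were tested, and 1 was higher and 5 were lower on GelMA-PSS than on both controls, beside 45.3% and 39.3% of all genes. Birc6, which encodes a giant ubiquitin ligase, was past 2-fold below both, as 1.16% of all genes were (154.8, 188.7 and 73.6 in the order TCP, GelMA, GelMA-PSS), and its log2 ratio against GelMA went from -1.35 to -0.27 with the correction. Birc2, the gene next to Birc3 and its closest relative, was at 19.7, 18.6 and 17.5.

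NF-kB targets are also expressed by immune cells, so their markers were counted. Of 10 leukocyte markers 2 were above the limit, and the summed CPM of the list was 3.15 on TCP, 2.53 on GelMA and 2.23 on GelMA-PSS, lower on both gels than on TCP. Ptprc (CD45) had 0, 0 and 4 counts and Adgre1 (F4/80) 0, 1 and 0. None of 5 endothelial markers was above the limit, with summed CPM values of 0.788, 0.726 and 0.905. Of 6 adipocyte and osteoblast markers only Bglap was, and the sums were 3.46, 1.70 and 2.32. In bulk RNA a higher share of cells that express a gene and more RNA per cell cannot be told apart.

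The genes whose pattern over the 3 libraries lay nearest to those of the members with the widest range were found among genes whose CPM reached 10 on any substrate. For Nfkbia these were Fbxl13 (9.07, 14.2 and 23.5 on TCP, GelMA and GelMA-PSS), Gsap (22.9, 35.4 and 57.0) and Nsg1 (12.4, 18.4 and 32.0), at distances of 0.0193, 0.0290 and 0.0467 over the log2 ratios of both gels against TCP. For Il6 they were Lpcat1 (9.05, 14.6 and 16.1), G6pdx (30.2, 46.9 and 53.4) and Cd248 (15.7, 24.1 and 28.1), at 0.0241, 0.0243 and 0.0308. With 3 libraries, 2 ratios define each pattern. The distances were taken on log2(CPM + 1), which understates the change of Il6. In plain CPM Il6 was 2.61 times TCP on GelMA and 3.20 times on GelMA-PSS, larger folds than those of Lpcat1, G6pdx and Cd248.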

How the data were processed

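RNA-seq libraries of c2c12 cells from TCP, GelMA and GelMA-PSS were analysed, 1 for each of the 3 substrates. The deposited files hold raw counts that the authors made per gene symbol and did not normalize. The submitters' processing notes name TopHat, edgeR, mm10 and hg19. The counting tool and the annotation are not given in the sources used here. The paper names a TruSeq kit with strand-specific paired reads and the labels a SMARTER kit. It is not known whether both reads of a pair were counted.

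Lines sharing a symbol were summed (23282 lines, 23238 symbols). Counts were scaled to CPM with TMM factors of 1.02, 1.04 and 0.943 (edgeR 4.0.16). A gene was tested when its CPM reached 1 on any substrate. A gene was called past 2-fold on log2(CPM + 1), without a test. Intervals are 95% Wilson intervals for levels and exact conditional binomial intervals for folds, from scipy 1.17.1, except that ratios between genes used the normal approximation on the log scale. Lengths, positions and GC content came from 1 transcript per gene of GENCODE vM21 (GRCm38), with 22197 symbols matched directly, 649 through older names and 392 not matched. Ratios were corrected by loess with a span of 0.3 (statsmodels 0.14.6). The calls and the correction were tested on simulated counts with known fold changes or a known trend with length. These counts held counting error only and no trend with GC content. They were scaled by median-of-ratios factors and not by TMM, so the TMM scaling was not tested.

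The members and gene lists were chosen with earlier results of these data known. The text names the members, the genes of each list past 2-fold against both controls or otherwise the most different one, and the 3 nearest patterns. Other genes were named after their values were seen. Lists share Traf1, Tnip1, Birc2, Xiap, Nfkbiz, Bcl3 and Itgam. Alternatives covered the fold, the pseudocount, the filter, the scaling and the length correction.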

Additional observations from a re-analysis of the deposited data

How the results depend on the processing

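No paired analysis was possible because each substrate has 1 library. Leaving out a library was not possible for the same reason. At 1.5-fold, 1 member was past the threshold against GelMA, 2 against TCP, 1 for GelMA against TCP and 1 against both controls, in place of 0, 1, 0 and 0, while all genes gave 2871, 3247, 740 and 2010 in place of 540, 902, 132 and 333. With a pseudocount of 0.1, 2 members passed against TCP and 1 for GelMA against TCP, and all genes gave 881 against GelMA, 319 for GelMA against TCP and 553 against both controls. A pseudocount of 5 gave 298, 469, 45 and 183 genes in the order above. In TPM without a factor, which put the median log2 ratio of all genes at -0.37 against GelMA and -0.32 against TCP, 0 members passed against TCP and 1 member was highest on GelMA-PSS in place of 4. The scaling moved the split of all genes into higher and lower, from 233 and 307 against GelMA to 41 and 1040 in TPM and 120 and 506 on the total count, from 490 and 412 against TCP to 148 and 1050 in TPM and 338 and 576 on the total count, and from 180 and 153 against both controls to 30 and 626 and to 97 and 261. The correction for length and GC content left 244, 577 and 139 genes against GelMA, TCP and both controls. The cause of these shifts was not tested. Under the scalings and the correction Nfkbia stayed highest on GelMA-PSS. Intervals of Birc3, Icam1 and Il6 are limited by their counts.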

Other observations

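Beyond the cytokine itself, the genes that receive and pass on the interleukin 6 signal were measured in the same libraries. Of 14 such genes 13 were tested and none was past 2-fold in any comparison. Of all genes, 4.1% were past it for GelMA-PSS against GelMA, 6.85% for GelMA-PSS against TCP and 1% for GelMA against TCP. On GelMA-PSS 2 were higher and 8 lower than both controls, beside 45.3% and 39.3% of all genes. Once the ratios were corrected for length and GC content these were 4 and 6, beside 40.9% and 40.7%. The receptor gene Il6ra was at a CPM of 2.72 on TCP, 4.67 on GelMA and 4.04 on GelMA-PSS. Il6st, which encodes the shared receptor subunit gp130, was at 141.0, 151.9 and 95.4, and its log2 ratio against GelMA went from -0.67 to -0.01 with the correction. Lifr, the receptor of leukemia inhibitory factor, had the largest uncorrected log2 ratio of this group against the mean of both controls. It was at 35.5, 39.1 and 23.8, and its ratio against GelMA went from -0.69 to -0.01. Both transcripts are long, at 8678 and 9655 bases. Socs3, the feedback inhibitor of gp130 signals, was at 11.1, 17.9 and 19.3, higher on both gels than on TCP, as Il6 was, with a log2 ratio for GelMA against TCP of 0.64 before and 0.66 after the correction.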
